A study of Rattus norvegicus with 2 samples.

Results

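Genes for 4 mitochondrial proteins of the low-oxygen response, Bnip3, Fam162a, Higd1a and Pdk1, and the Pdk1 paralogue Pdk2 were followed in H9c2 cells, an embryonic cardiomyoblast line of the rat. The control culture received 0.9 mM phosphate and the high phosphate culture 2.5 mM, each over 12 h in DMEM without serum. Each phosphate level had 1 RNA-seq library, so no difference below has a replicate check and none was tested. The 5 genes were found by their Entrez gene identifiers among 8039 listed entries, and all 5 were among the 4366 genes whose mean FPKM (a gene's fragments scaled by transcript length and by the library's mapped fragments) over the 2 libraries was 1 or more, which are called compared. They were chosen by their FPKM in these same libraries, 4 because they were higher in high phosphate and Pdk2 because it was not. Their differences are therefore given as a description.

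Cells that lack oxygen stabilise the transcription factor HIF1, which shifts energy production away from mitochondria. Part of that programme acts inside the organelle. PDK1 and PDK2 are kinases that phosphorylate and switch off pyruvate dehydrogenase, the gate through which pyruvate from glycolysis enters the tricarboxylic acid cycle. BNIP3 is an outer membrane protein that recruits autophagosomes to mitochondria. FAM162A (also called HGTD-P) is a mitochondrial protein linked to cell death in low oxygen, and HIGD1A is a small inner membrane protein that binds respiratory chain complexes. Of these genes, Bnip3, Fam162a, Higd1a and Pdk1 are known to respond to HIF, whereas Pdk2 is the widely expressed kinase isoform.

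HIF binds DNA at a short core, written ACGTG or GCGTG, and the bases before the transcription starts of all 5 genes were searched for it on both strands. The sequences are RefSeq promoter windows on the rat build GRCr8, from 250 bases before to 50 bases after a start, and all 5 genes matched 1 window each. The submitters' processing notes name another build, Rnor_6.0, and no position was converted. Stretches upstream of each gene model (for Pdk1 with 1 base of it, to complete a match) are shown 5′ to 3′ on the gene's strand, with every match in capitals (CACGT and CACGC are the cores read on the other strand). They are shown because 4 of the genes were higher together and the fifth was not. They lie at chr1:203154963-203155212 (minus strand) for Bnip3, chr8:130400889-130401138 (minus strand) for Higd1a, chr3:77113264-77113464 (plus strand) for Pdk1 and chr10:80483989-80484162 (minus strand) for Pdk2. The Bnip3 window overlaps a noncoding RNA gene, LOC102553541, on the opposite strand. For Fam162a, whose upstream bases lie within the neighbouring coding gene Mix23, only 30 bases with a pair of matches are shown, at chr11:78186212-78186241 (plus strand).
Bnip3: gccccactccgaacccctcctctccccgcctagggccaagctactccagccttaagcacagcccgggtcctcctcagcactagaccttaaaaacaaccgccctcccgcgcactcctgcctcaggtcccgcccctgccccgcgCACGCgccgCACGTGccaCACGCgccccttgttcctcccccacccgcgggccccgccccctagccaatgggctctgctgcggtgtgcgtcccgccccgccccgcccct
Fam162a: tcgtcgcgCACGTcccgCACGCccgctgcg
Higd1a: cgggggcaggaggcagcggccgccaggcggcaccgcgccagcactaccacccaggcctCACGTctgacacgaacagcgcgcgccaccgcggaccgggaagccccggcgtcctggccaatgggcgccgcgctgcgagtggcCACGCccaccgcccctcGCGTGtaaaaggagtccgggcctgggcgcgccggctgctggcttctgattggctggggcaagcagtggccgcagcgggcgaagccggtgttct
Pdk1: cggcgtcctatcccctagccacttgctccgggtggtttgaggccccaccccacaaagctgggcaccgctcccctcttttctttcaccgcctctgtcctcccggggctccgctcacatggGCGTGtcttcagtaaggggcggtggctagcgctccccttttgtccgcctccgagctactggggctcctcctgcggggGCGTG
Pdk2: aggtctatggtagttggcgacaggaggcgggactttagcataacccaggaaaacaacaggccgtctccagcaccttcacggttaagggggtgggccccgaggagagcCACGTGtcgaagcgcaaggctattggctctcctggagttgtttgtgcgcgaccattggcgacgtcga

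Distances below run from each window's start to a match's leftmost base as printed. The Bnip3 stretch held 4 matches between 108 and 90 bases before the start. A pair of them belong to 1 CACGTG, a palindrome that reads as ACGTG on both strands and is also the E-box bound by other factors. In the Fam162a window there were 5 matches, of which the ACGTG at 81 and the GCGTG at 72 bases before the start are printed. Higd1a had 3, at 192, 110 and 93 bases before its start. Pdk1 had 2 GCGTG matches, at 131 and 54 bases before the start, and 2 ACGTG matches within the 50 bases after it. Pdk2 held 2 matches, again the strands of 1 CACGTG, at 143 and 142 bases before the start, and no GCGTG. Over the whole windows, the counts were thus 4, 5, 3, 4 and 2.

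Such matches are common. A core was held at least once by 41.6% of all 33469 promoter windows and by 64.8% of the 3770 windows that belong to compared genes. Among the latter, 36.0% held at least 2 matches, 16.8% at least 3, 7.40% at least 4 and 3.21% at least 5. Compared genes of the pyruvate dehydrogenase list below, where only Pdk1 was higher, had 8 windows. Of these, 75% held at least 2 matches, 50% at least 3, 25% at least 4 and 12.5% at least 5. For the low-oxygen list below, mostly of higher genes, the shares over 23 windows were 43.5%, 30.4%, 17.4% and 8.70%. The single motifs were found in 19.3% (ACGTG), 29.7% (GCGTG) and 6.42% (CACGTG) of all windows. In the windows of compared genes these shares were 28.2%, 51.9% and 10.7%. The core contains CG, and the 5 upstream stretches of 250 bases held between 19 and 32 CG steps, where the median window of a compared gene had 16. A match is a description of letters and not a binding site, and binding was not measured in these samples.

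The levels of Bnip3, Fam162a, Higd1a and Pdk1 were between 3.37 and 5.42 times as high in the high phosphate library as in the control, and that of Pdk2 was 0.971 times the control. Bnip3 (Entrez 84480) stood at 51.3 FPKM in the control and at 245 FPKM in high phosphate. Fam162a (Entrez 360721) was listed at 55.5 and 199 FPKM. These were the most abundant of the 5 genes in both libraries, and their order differed, with Fam162a ahead in the control and Bnip3 ahead in high phosphate. Higd1a (Entrez 140937) was listed at 26.3 and 88.5 FPKM. Pdk1 (Entrez 116551) was the lowest of the 5 in the control, with 7.84 FPKM, and stood at 42.5 FPKM in high phosphate. Pdk2 (Entrez 81530) was listed at 13.9 and 13.5 FPKM, so it was the fourth of the 5 in the control and the lowest in high phosphate. With bulk RNA, fewer cells that express a gene and less of its RNA per cell cannot be told apart.

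**Figure D1:**
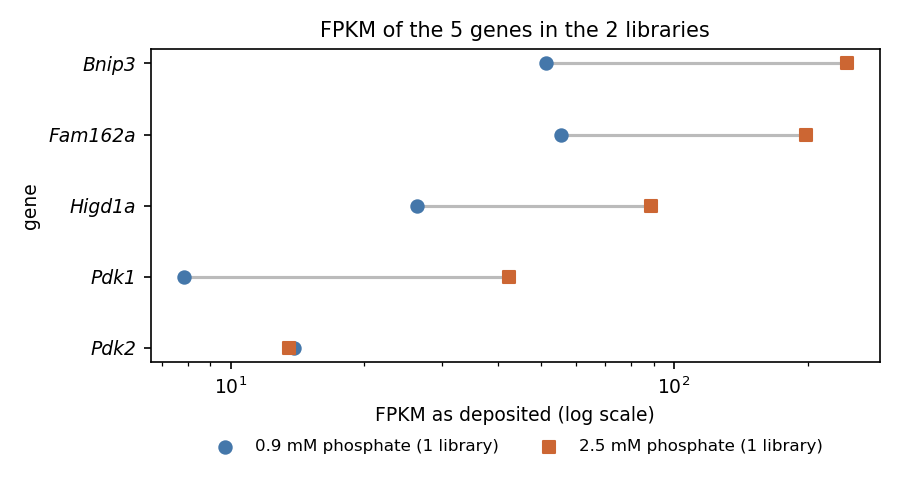
FPKM as deposited (log axis) of the 5 genes in the control library (circles, 0.9 mM phosphate) and the high phosphate library (squares, 2.5 mM), with 1 library per phosphate level and no error bars. Bnip3, Fam162a, Higd1a and Pdk1 lie well to the right in high phosphate, while the Pdk2 symbols overlap at 13.9 and 13.5 FPKM.

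On the scale of log2(FPKM + 1), where the added 1 keeps low values from giving extreme ratios, the log2 ratios of high over control phosphate were 2.30 for Pdk1, 2.23 for Bnip3, 1.82 for Fam162a, 1.71 for Higd1a and -0.04 for Pdk2. At least 2-fold higher by this scale were 4 of the 5, against 1.76% of all genes compared (77 genes), and none was at least 2-fold lower, against 0.870% (38 genes). Nothing is read from that contrast, because the genes were picked for it. Among all 4366 genes, the log2 ratios of Pdk1, Bnip3, Fam162a and Higd1a ranked 4, 8, 17 and 22 from the top. Most genes above them had low values. Of the 2550 genes averaging at least 10 FPKM, Pdk1, Bnip3, Fam162a and Higd1a held ranks 2 to 5 in that order, and of the 904 averaging at least 50 FPKM, Bnip3, Fam162a and Higd1a held the first 3. Pdk2 ranked 2476 of 4366, and 484 genes (Pdk2 included) had a log2 ratio as close to 0 as its own.

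**Figure D2:**
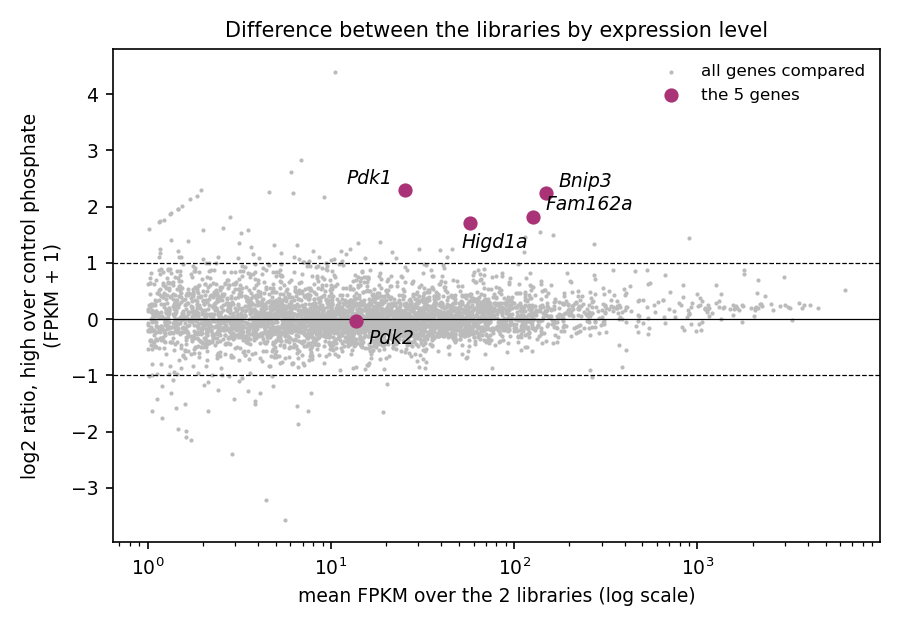
Log2 ratio of high over control phosphate on FPKM + 1 against the mean FPKM of the 2 libraries (log axis) for the 4366 genes compared (grey) and the 5 genes (purple), with dashed lines at 2-fold. Pdk1, Higd1a, Fam162a and Bnip3 lie above nearly all grey points at their own level, and Pdk2 lies on the zero line.

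Genes expressed at a like level give a yardstick for the size of these differences. For each of the 5, the other genes with a mean FPKM within 2-fold of its own were taken. Log2 ratios of the central 95% lay between -0.42 and 0.77 in the 444 genes near Bnip3, between -0.41 and 0.76 in the 530 near Fam162a, between -0.46 and 0.73 in the 1040 near Higd1a and between -0.54 and 0.73 in the 1413 near Pdk1. No gene in the Bnip3, Higd1a or Pdk1 sets had a larger log2 ratio than the gene itself, and 1, Bnip3, did in the Fam162a set. Near Pdk2, the median over 1465 genes was -0.03, next to its own -0.04. This is the spread between genes of 1 pair of libraries, not between replicate cultures. The 5 genes were chosen by their FPKM in these libraries, so their places outside or inside these ranges follow from that choice.

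The sum of listed FPKM was higher in the high phosphate library (346857 against 307622), so scaling bears on small differences. Bringing both libraries to the same sum shifted the median over all genes from 0.00 to -0.15 in log2 ratio, and the counts at 2-fold became 57 higher and 57 lower. The ratios of the 4 higher genes then were 2.14 for Pdk1, 2.06 for Bnip3, 1.65 for Fam162a and 1.55 for Higd1a. Pdk2 then had a log2 ratio of -0.20, close to the shifted median of all genes. Of all genes compared, 50.5% had a log2 ratio above 0 as deposited, and the counts of higher genes as deposited below stand against that share. Counts after rescaling to the same sum do not, because with a median of -0.15 most genes then lie below 0. Directions of small differences in the gene groups below depend on this choice, and where the count of higher genes changes by more than 1.5 times it is given.

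The order of Pdk1 and Pdk2, the kinases of the pyruvate gate, differed between the libraries. FPKM is a level per transcript length, so the isoforms can be set side by side. In the control, Pdk2 was 1.77 times as abundant as Pdk1. In high phosphate, Pdk1 was 3.15 times as abundant as Pdk2. Pdk1 thus made up 36.0% of the summed FPKM of the pair in the control and 75.9% in high phosphate. Their summed level was 21.8 FPKM in the control against 56.0 in high phosphate, and Pdk1 supplied all of the excess. The isoforms Pdk3 and Pdk4 were not analysed here.

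The other compared genes of the gate were listed slightly lower in high phosphate. Of 20 genes written for pyruvate dehydrogenase, its kinases and phosphatases and pyruvate entry, 9 were compared. Pdk1 was the 1 higher gene, and the other 8 were lower, none of them by 2-fold, with a median over all 9 of -0.11 against 0.00 for all genes compared. The E1 subunit genes Pdha1 and Pdhb, which encode the target of the kinases and its partner, had 53.3 and 47.3 FPKM and 28.0 and 25.9 FPKM in control and high phosphate. Dlat, the E2 core, had 25.1 and 22.4 FPKM. Pdp2, a phosphatase that reverses the action of the kinases, had 5.55 and 4.80 FPKM, a log2 ratio of -0.18. Lias, which makes the lipoyl cofactor, had 5.84 and 5.54 FPKM, and the pyruvate carrier subunit Mpc1 had 65.8 and 64.2 FPKM. The lowest log2 ratio, -0.21, was that of Bckdk, the related kinase of branched-chain ketoacid dehydrogenase, with 112 and 96.6 FPKM. Below the minimum of 1 FPKM, Pdha2 was listed at 0.23 and 0.65 FPKM and Lipt1 at 0.59 and 0.33 FPKM.

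**Figure D3:**
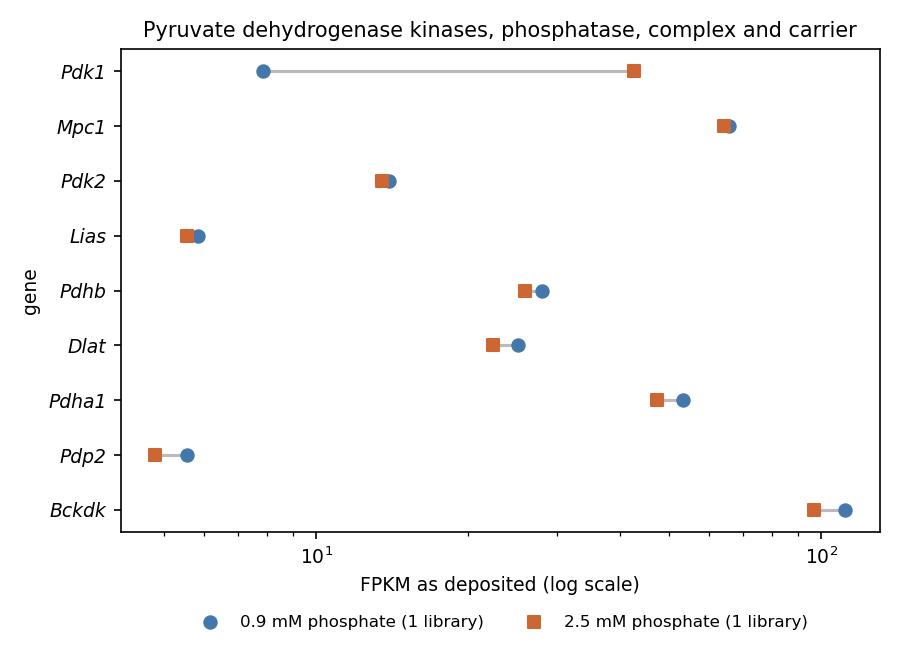
FPKM as deposited (log axis) of the 9 compared genes of the pyruvate gate, in the control library (circles) and the high phosphate library (squares), ordered by log2 ratio, with 1 library per phosphate level. Pdk1 is listed at 7.84 and 42.5 FPKM, and every other gene has its square slightly left of its circle.

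In pyruvate and lactate exchange, 5 of 6 compared genes were higher, none by 2-fold (median 0.32). This list mixes genes whose products act in mitochondria with others, and Mpc1 also belongs to the gate list above. Ldha, the lactate dehydrogenase subunit that favours lactate formation, had 1269 and 2311 FPKM. Bsg, the chaperone of the lactate transporters, had 2.50 and 3.88 FPKM. The smallest ratios were those of Mpc1 and of the malic enzyme Me2, with 17.7 and 20.0 FPKM. The tricarboxylic acid cycle was level, with 5 of 10 compared genes higher and a median of 0.00. Its ends were Idh2, the NADP-linked isocitrate dehydrogenase, with 157 and 248 FPKM (log2 ratio 0.65), and Idh3b, a subunit of the NAD-linked enzyme, with 46.8 and 38.7 FPKM (log2 ratio -0.27). Mdh2, its most abundant gene by mean FPKM, had 254 and 228 FPKM. After rescaling to the same sum 2 of the 10 were higher.

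Kinases of this family also answer to fasting through PPAR and FOXO factors, and genes of that system were compared with Pdk1. Of 7 compared genes 4 were higher and 3 lower, with none at 2-fold and a median of 0.12. Foxo3, a transcription factor of nutrient withdrawal, had 2.51 and 3.93 FPKM, and the lipid droplet protein gene Plin2 had 6.14 and 8.35 FPKM. Cpt1a, which admits fatty acids to mitochondria and is a classical PPAR target, was lowest with 20.5 and 11.3 FPKM (log2 ratio -0.81). Acadm, an enzyme of fatty acid oxidation, had 19.3 and 18.0 FPKM, and the most abundant gene, the nuclear receptor Esrra, had 23.8 and 26.0 FPKM.

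Bnip3 had the largest ratio of the mitophagy genes compared. Of 25 genes written for mitophagy receptors and their partners, 11 were compared, 6 of them higher, and Bnip3 alone was at least 2-fold apart. The other 10 had log2 ratios from -0.31 to 0.43, with 5 higher and 5 lower, and the median with Bnip3 was 0.01. The genes of the ATG8 family, whose proteins BNIP3 binds on the autophagosome, were led by Gabarapl1 with 19.8 and 27.1 FPKM. Gabarap, the most abundant, had 301 and 325 FPKM. The receptors Phb2 and Sqstm1 were lowest, with 116 and 93.3 FPKM and with 184 and 151 FPKM. The close relative Bnip3l was not analysed here. After rescaling to the same sum, 2 of the 11 were higher.

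BNIP3 was first classed with the BCL2 family of cell death regulators. Of 6 compared genes of that family, Bnip3 and Bbc3 were higher and 4 were lower, with a median of -0.17. Bbc3, a BH3-only activator of death, had 9.91 and 11.5 FPKM. Bax, a pore former of the outer membrane, had 133 and 107 FPKM, and Bad had 7.78 and 6.53 FPKM. The protective gene Bcl2l1, named after its values were seen, lay below the minimum, listed at 1.51 and 0.25 FPKM. Values this low can be failed estimates, so they are given only as listed.

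Fam162a was the 1 gene at least 2-fold apart among 11 compared genes of mitochondrial permeability and death factors. Of these 11, 5 were higher and 6 lower, with a median of -0.01, and after rescaling to the same sum 3 were higher. The other 10 ran from -0.21 to 0.46. Vdac1, an outer membrane channel, stood next after Fam162a with 86.2 and 119 FPKM, whereas the isoform Vdac2 was lowest with 71.8 and 62.0 FPKM. Ppif, the cyclophilin of the permeability transition, had 8.66 and 7.85 FPKM. The adenine nucleotide carrier Slc25a4, the most abundant, had 415 and 456 FPKM.

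Mix23, a gene for a mitochondrial intermembrane space protein, overlaps the start of Fam162a on the opposite strand in the RefSeq models. It was listed at 13.9 and 20.6 FPKM, a log2 ratio of 0.53. Strand settings of the counting are not stated in the labels or file headers, so reads at the overlap could count for either gene. On its other side, the next compared gene, Wdr5b, had 2.70 and 1.81 FPKM. The nearest compared genes on the 2 sides of the other members, read from gene order alone and named after their values were seen, had log2 ratios between -0.23 and 0.82. These ends were Zfp511, which lies 30 genes from Bnip3, and Snrk, 9 genes from Higd1a, with 0.47 and 1.60 FPKM. Ppp2r2d, directly next to Bnip3, had 29.1 and 28.6 FPKM.

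Higd1a was likewise the 1 gene at least 2-fold apart among 18 compared genes of the HIG1 family and cytochrome c oxidase, the respiratory complex that HIGD1A binds. The other 17 ran from -0.10 to 0.31. Of the 18, 16 were higher (median 0.17), and 9 after rescaling to the same sum, where most of all genes compared were lower. Higd2a, the relative that helps assemble respiratory supercomplexes, had 77.4 and 85.7 FPKM. Cox8a, an oxidase subunit, stood next after Higd1a with 939 and 1168 FPKM. Taco1, which activates translation of an oxidase subunit, had 2.29 and 2.06 FPKM, and the assembly factor Cox14 had 91.6 and 89.6 FPKM. The most abundant gene, Cox6a1, had 1076 and 1230 FPKM. Higd1b and Higd1c were not analysed here.

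**Figure D4:**
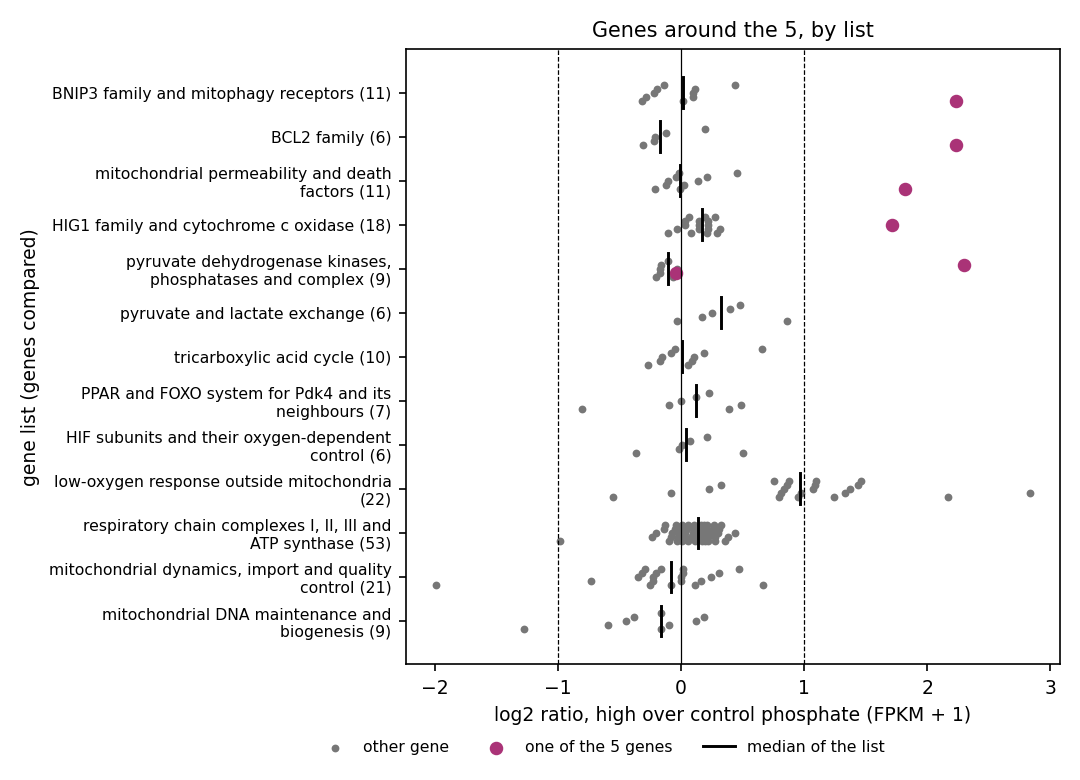
Log2 ratios of high over control phosphate on FPKM + 1 for the compared genes of 13 lists around the 5 genes (number compared in brackets), with the 5 genes in purple, all others in grey, black bars at each list's median and dashed lines at 2-fold. Bnip3, Fam162a, Higd1a and Pdk1 lie to the right of every other gene of their mitochondrial lists, and the list of the low-oxygen response outside mitochondria is the 1 list with its median near 2-fold.

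Most other genes of the organelle were under 2-fold apart, and the added 1 again understates the difference of low genes. Of 53 compared genes of complexes I, II and III and ATP synthase, 39 were higher and 14 lower with none at 2-fold on that scale (median 0.14), and 23 were higher after rescaling to the same sum. Ndufb4 and Ndufa12, accessory subunits of complex I, were highest with 297 and 402 FPKM and with 228 and 297 FPKM. Ndufv3 had 60.3 and 51.0 FPKM, and Ndufab1 was lowest with 2.06 and 0.55 FPKM, which passes 2-fold in plain FPKM. The ATP synthase subunit Atp5f1b, the most abundant, had 869 and 887 FPKM. Of 21 compared genes of mitochondrial dynamics, import and quality control, 8 were higher and 13 lower (median -0.08), and 4 were higher after rescaling. With the added 1, the 1 gene at least 2-fold apart was Opa1, the fusion GTPase of the inner membrane, with 3.18 and 0.05 FPKM, and the fission GTPase Dnm1l had 2.09 and 0.86 FPKM, which likewise passes 2-fold in plain FPKM. A value this near 0 can be a failed estimate, so the Opa1 value is given only as listed. Chchd6, of the cristae organising system, had 17.6 and 28.5 FPKM, the chaperonin Hspd1 had 6.63 and 9.60 FPKM, and the import subunit Tomm7, the most abundant, had 528 and 625 FPKM.

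Of 9 compared genes that transcribe, copy or maintain mitochondrial DNA or drive the nuclear genes of the organelle, 2 were higher and 7 lower, with a median of -0.16, and 1 was higher after rescaling to the same sum. Most of the 9 regulate transcription. Mterf3, a regulator of mitochondrial transcription, was at least 2-fold lower with 5.39 and 1.64 FPKM. Polg2, the accessory subunit of the mitochondrial polymerase, had 3.11 and 1.72 FPKM, and the packaging factor Tfam, the most abundant, had 34.2 and 30.5 FPKM. Nrf1 and Esrra, which drive respiratory genes, were the 2 higher ones, Nrf1 with 1.45 and 1.79 FPKM. The 13 genes encoded by mitochondrial DNA were not analysed here, so the organelle's own transcripts give no measure of its amount.

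Few parts of the HIF system could be compared, and Hif1a itself was not analysed here. Of 6 compared genes, 4 were higher and 2 lower with none at 2-fold (median 0.04), and after rescaling to the same sum 2 were higher. Vhl, the ubiquitin ligase subunit that marks HIF for destruction, had 12.8 and 18.5 FPKM, and its partners Eloc and Rbx1 had 9.23 and 10.8 FPKM and 127 and 134 FPKM. Cited2, which competes with HIF for its coactivators, was lowest with 98.5 and 76.2 FPKM, and the ligase gene Siah1 had 10.6 and 10.4 FPKM. Epas1 and Egln3 were listed below the minimum in both libraries.

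Low-oxygen response genes whose products act outside mitochondria were higher along with the 4 members. Of 22 compared, 20 were higher, 10 of them at least 2-fold, and the median was 0.96, against 50.5% higher, 1.76% at least 2-fold higher and a median of 0.00 over all genes. After rescaling to the same sum 20 were higher and 7 were at least 2-fold. This list was written with earlier results of these data known and is no independent evidence of a direction. P4ha2, a collagen prolyl hydroxylase subunit, had the largest ratio with 0.94 and 12.9 FPKM, followed by the aldolase Aldoc with 2.71 and 15.7 FPKM. Gys1, muscle glycogen synthase, and Gbe1, the glycogen branching enzyme, were named after their values were seen, with 17.4 and 42.6 FPKM and with 9.49 and 21.3 FPKM. The lowest ratio was that of the transferrin receptor gene Tfrc, with 22.0 and 14.6 FPKM. By log2 ratio with the pseudocount of 1, Higd1a and Fam162a lay between Aldoc and the genes below it, and Pdk1 and Bnip3 between P4ha2 and Aldoc, although in listed FPKM the ratio of Aldoc was above theirs (5.80 against 5.42 and 4.77).

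Among genes averaging at least 5 FPKM, those nearest to each member in log2 ratio were named. With only 2 libraries, likeness is 1 number per gene and any gene of like ratio scores well. Nearest to Bnip3 were Mgp (2.24), an inhibitor of calcification, Aldoc (2.17) and Pdk1 (2.30). The same genes surrounded Pdk1, with Bnip3 in place of Pdk1. Fam162a and Higd1a were nearest to each other, followed for both by the matrix protein gene Ccdc80 (1.54) and the desaturase gene Scd2 (84.5 and 241 FPKM). Nearest to Pdk2 were Fem1b and Med29, both at -0.04.

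Marker genes were read to check the cell type. Of the 6 listed skeletal myoblast markers, 2 passed the minimum. The muscle filament gene Des had 129 and 153 FPKM and the myogenic factor Myod1 6.11 and 1.59 FPKM. Myog, Chrna1 and Myh3 were below 1 FPKM in both libraries, and Tnnt1 was listed at 0. The 4 listed cardiomyocyte markers, Myh7, Ryr2, Mb and Pln, were all below 1 FPKM in both libraries and summed to 0.27 and 0.98 FPKM, with Myh7 and Ryr2 listed at 0. A listed 0 need not mean low expression here, since genes that every cell uses were also listed at or near 0, such as the glycolytic enzyme genes Tpi1 (0.29 and 0 FPKM) and Eno1 (0.75 and 0.90 FPKM) and the oxidase subunit gene Cox6b1 (0.70 and 0 FPKM). The 4 endothelial markers summed to 0.08 and 0.36 FPKM, led by Pecam1 at 0.05 and 0.22 FPKM, and Ptprc of blood cells was listed at 0, with the same limit. Cd68 had 1.06 and 1.38 FPKM. Smooth muscle markers summed to 2520 and 3839 FPKM, led by Acta2 with 1647 and 2651 FPKM. None of the 4 was at 0, but Myh11 was below 1 FPKM in both libraries (0.60 and 0.61). Fibroblast markers summed to 4021 and 4427 FPKM, and of 6 compared 5 were higher, none by 2-fold, with a median of 0.65. S100a4, which dominates that sum, had 3291 and 3249 FPKM, Col3a1 had 489 and 844 FPKM and Thy1 232 and 317 FPKM, while Lum, Dcn and Col1a1 were higher at under 10 FPKM and Pdgfra was listed at 0. Of the 4 listed epithelial markers only Krt8 was above 1 FPKM, with 140 and 247 FPKM. The part of these markers' differences in those of the 5 genes was not tested.

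Reads that match several places are a limit for some of the 5 genes. The RefSeq table names 8 pseudogenes of Bnip3, 1 of Fam162a and 1 further gene named after Higd1a, and none named after Pdk1 or Pdk2. None of these copies had an entry of its own among the genes listed here, and neither labels nor headers say how reads shared with them were assigned.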

How the data were processed

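RNA of 2 H9c2 cultures, 1 per phosphate level, was sequenced. The authors deposited FPKM, per the file headers, in steps of 0.01. The build Rnor_6.0 and the tools Cuffdiff, Cufflinks 2.2.1, TopHat2 2.1.1 and bcl2fastq come from the submitters' processing notes. Neither these notes nor labels or headers state the roles of the tools, the annotation, strand settings or any scaling between libraries. No counts were available for use, so the depth is unknown and no counting interval is given.

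Of 8039 entries, 236 without a usable gene identifier were left out, and 7746 of the other 7803 matched a symbol in the RefSeq table for GRCr8. The difference was log2((high phosphate FPKM + 1)/(control FPKM + 1)) for genes averaging at least 1 FPKM, called from 2-fold. No test was run and no p-value is given, since each group had 1 library. The calculation was tested on simulated libraries.

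The 5 genes and the 14 pathway and 7 marker lists were chosen with earlier results of these data known. Besides the 5 genes, named genes were 2 compared genes at each end and the most abundant gene of each list, all compared genes of the pyruvate dehydrogenase list and of the HIG1 proteins, the 3 genes nearest to each member in log2 ratio, and the leading markers. A few genes that this rule names are not reported here, and Bcl2l1, Tpi1, Eno1, Cox6b1, neighbouring genes, further markers and the glycogen genes were added after their values were seen. The 11 alternatives were pseudocounts of 0.1 and 0.5, 4 rescalings (same sum, median ratio, upper quartile, and sum without the 100 most abundant genes), 3 other low-value filters and thresholds of 1.5-fold and 3-fold. Calculations used Python 3.11.15, numpy 2.4.6, pandas 2.3.3 and matplotlib 3.10.9.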

Additional observations from a re-analysis of the deposited data

How the results depend on the processing

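Bnip3, Fam162a, Higd1a and Pdk1 were at least 2-fold higher under all 11 alternatives, also with a threshold of 3-fold, and Pdk2 was not. The filters leave a gene's own ratio as it is and all 5 genes passed them, and 1.5-fold is a looser threshold. The outcomes under those settings thus followed from the main values. Over pseudocounts and rescalings, log2 ratios ran from 2.06 to 2.25 for Bnip3, 1.65 to 1.84 for Fam162a, 1.55 to 1.75 for Higd1a, 2.14 to 2.42 for Pdk1 and -0.20 to -0.02 for Pdk2. The counts of all genes, 77 higher and 38 lower, moved more. They were 151 and 62 with a pseudocount of 0.1, 41 and 8 from a mean of 5 FPKM, and 49 and 19 with at least 1 FPKM in both libraries. They were 315 and 147 at 1.5-fold and 25 and 13 at 3-fold. Rescaling to the same sum moved the number of higher genes to 2 of 11 for mitophagy, 3 of 11 for permeability and death factors, 9 of 18 for the HIG1 and oxidase list, 2 of 10 for the tricarboxylic acid cycle, 2 of 6 for the HIF system, 23 of 53 for the other respiratory complexes, 4 of 21 for dynamics and import and 1 of 9 for mitochondrial DNA maintenance. That rescaling lowered the median over all genes to -0.15, so these counts do not stand against the share of higher genes as deposited. The HIF system also had 2 of 6 higher with the sum taken without the 100 most abundant genes. From a mean of 5 FPKM, 3 of 9 permeability and death factors, 3 of 4 pyruvate and lactate genes and 1 of 5 genes of mitochondrial DNA maintenance were higher. Without a filter, 2 of 11 genes of the pyruvate gate were higher. Fewer genes entered under the stricter filters. No paired analysis was possible because each phosphate level had 1 library, and for the same reason no library could be left out.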
